A study of Mus musculus with 6 samples.

Results

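The 39 genes described here are the mouse counterparts of human genes named at type 2 diabetes risk loci, and their transcripts were measured in pancreatic islets of a diabetes-prone and a diabetes-resistant obese mouse strain. They were found by name among 27729 gene names on the array, and the rule that lists them uses no measured value. All 39 had at least 1 probe, 81 probes in all, and 33 had a probe that passed the filter on dim signal, which asks that the scanner software find it well above background on 3 or more of the 6 arrays. Of the 81 probes, 59 passed. A member is represented below by its brightest probe among those that passed, and C2cd4b was found under an older name, Fam148b.

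The diabetes-prone strain is New Zealand Obese, labelled NZO/HiBomDife and called NZO here. The diabetes-resistant strain is C57BL/6.V-Lepob/ob, called B6-ob/ob here, whose obesity comes from a mutation in the leptin gene. Every mouse was male, had eaten a high-fat diet free of carbohydrate until 18 weeks of age, and had then been given carbohydrate for 48 h before their islets were taken. Both strains had the same treatment, and only this 1 time was measured. The 3 NZO arrays bear the labels 10, 11 and 12 and the 3 B6-ob/ob arrays bear 4, 5 and 6, with 1 sample on each. Whether a sample is 1 mouse or a pool is not in the labels, so p-values measure only how far these samples spread, and that spread may be technical.

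A type 2 diabetes locus is a stretch of the human genome in which common variants are associated with the disease, and it is usually named for a gene inside it or close by. The named gene is often a candidate and not a proven effector, since many of the associated variants lie outside coding sequence and may act on a neighbour. In islets, several of these genes have known parts in beta cell growth, in the production of cyclic AMP, in proinsulin processing or in the sensing of glucose, while others are better known in liver, fat or muscle.

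Each array was read in 1 colour, and all values are log2 intensities relative to the 75th percentile of the same array. Levels of different probes are not compared, because probes differ in brightness for the same amount of RNA. Each difference is the NZO mean minus the B6-ob/ob mean, with strains taken from the scanner files, and the deposited value table has the opposite direction. In that table each of the 6 columns follows an array of the other strain (r between 0.944 and 0.971, against -0.633 to -0.402 with the array of its own label). Which set of labels is right was not settled from these files, and every direction below would turn with the labels of the table.

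The samples also differed in markers of other pancreatic cells. Acinar markers were called higher in NZO at 14 of 15 genes (log2 summed level 10.6 to 11.2 in NZO, 7.86 to 9.53 in B6-ob/ob). Stromal markers were called higher at 10 of 10 genes (5.76 to 5.98 against 2.79 to 4.12), duct markers at 5 of 8 (7.33 to 7.86 against 6.44 to 8.03) and macrophage markers at 4 of 7 measured (3.97 to 4.91 against 2.92 to 3.12). Endothelial markers were called higher at 2 of 8 genes (5.68 to 6.00 against 5.59 to 5.67). Both lymphocyte markers that passed the filter were called higher, and among those that did not pass it were Cd3g, Cd8a, Cd4, Cd79a and Ms4a1. Some of these calls had to come out higher, because the marker passed the filter only through its NZO arrays. They were the lymphocyte marker Il7r, the stromal marker Pdgfra and the duct markers Cftr and Muc1. Of the 9 beta cell markers measured 1 was called, Nkx6-1, which was lower in NZO, and the summed level was 11.3 to 11.5 in NZO against 11.2 to 11.5 in B6-ob/ob. Of 7 markers of the other endocrine cells 1 was called, Ghrl, which was lower in NZO. The summed level of all 7 was 9.84 to 10.1 in NZO against 9.83 to 9.96 in B6-ob/ob. In whole islets fewer cells of a type and less RNA per cell cannot be told apart, and the part of these markers in any difference below was not tested.

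The comparison asks which of these genes differ in islets between the strain prone to diabetes and the strain resistant to it. Ankrd55, Adcy5, Gckr and Spry2 were higher in NZO, and Arap1, Zbed3 and Fto were lower, at an adjusted p under 0.05 (limma, Benjamini-Hochberg over 24628 probes). These 7 calls are 21.2% of the 33 measured members, beside 22.1% of 16384 genes measured on the same arrays. The 4 higher members stand beside 13.2% of genes called higher, and the 3 lower members beside 8.92% called lower. The median difference over the 33 members was -0.04 on the log2 scale, beside -0.03 over all genes. The strains did not overlap at 11 of the 33 members, beside 41.1% of all genes, and 4 members differed by at least 1 on the log2 scale, beside 15.1% of genes. By count and by median the members therefore lay near the background of the array, and the results below are about single genes. With arrays scaled on their medians in place of the 75th percentile, the split was 3 higher and 5 lower, and the median over all genes moved to -0.11. Ankrd55 passed the filter only through its NZO arrays and so had to differ. Among the 31 members well above background on all 6 arrays, 2 were higher and 3 lower, beside 20.9% of genes. That set leaves out Ankrd55 and also Adcy5, which was well above background on only 2 B6-ob/ob arrays. Without B6-ob/ob 5 the counts were 2 higher and 1 lower, beside 11.7% of all genes called in that fit. Without B6-ob/ob 6 the count of higher members was 2 (21.3% of genes called), and without NZO 11 the count of lower members was 1 (13.1% of genes called).

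**Figure D1:**
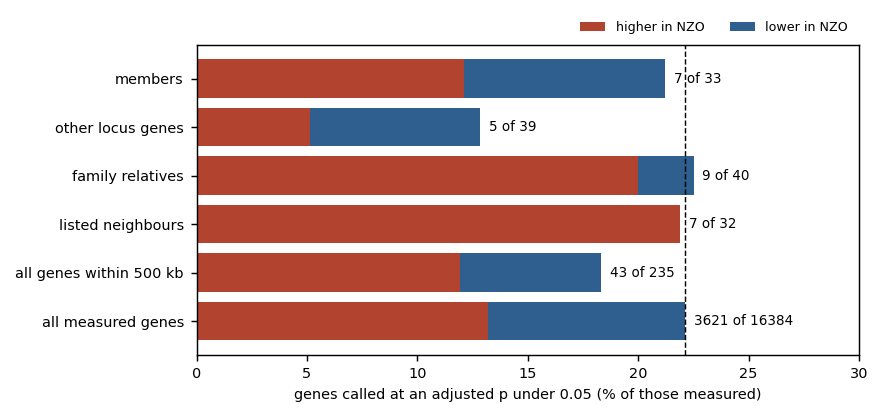
Share of measured genes called higher (red) or lower (blue) in NZO at an adjusted p under 0.05, in percent, for the members, the 3 lists set beside them, all genes within 500 kb of a member, and all measured genes, with the number called at each bar's end. The members, at 21.2%, end close to the dashed line at 22.1%, which marks all measured genes.

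The sequences of both Adcy5 probes are shown because they read neighbouring stretches of the gene and were called in the same direction. The first aligns over 2669 bases of the genome at chr16:35299723-35302391 on the plus strand of mm9, so its 60 bases are interrupted there, and the second lies directly before it at chr16:35299663-35299722. The files give no exon or UTR annotation for them.
Adcy5 probe 1: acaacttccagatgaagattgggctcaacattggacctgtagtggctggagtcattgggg
Adcy5 probe 2: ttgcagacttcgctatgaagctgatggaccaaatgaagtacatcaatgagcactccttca

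Among members with roles in receptors and signalling, 11 were listed and 8 measured, with 2 called higher and 1 lower. Here and in each role group below the count stands beside 22.1% of all genes called, and no group was tested as a set. Adcy5 encodes an adenylyl cyclase, an enzyme that makes cyclic AMP, the messenger through which incretin hormones raise insulin secretion. On its brightest probe the NZO arrays read -2.98, -3.02 and -3.16 and the B6-ob/ob arrays read -4.16, -5.40 and -5.20. All 3 NZO arrays were above all 3 B6-ob/ob arrays, and B6-ob/ob 4 was the highest of its strain. The probe was well above background on all 3 NZO arrays and on 2 B6-ob/ob arrays. The difference was 1.87 (SE 0.33, adjusted p = 0.00985 by limma), a 3.65-fold higher signal in NZO. The second probe, which shares no base with the first, read -3.08, -3.25 and -3.30 in NZO and -4.44, -5.16 and -5.18 in B6-ob/ob. It was well above background on 3 NZO arrays but on only 1 B6-ob/ob array, so most of its B6-ob/ob readings lie near background. It differed by 1.72 (SE 0.23, adjusted p = 0.00366 by limma), and both probes were called higher in NZO. The mean level of acinar markers was 3.80, 3.14 and 2.36 in B6-ob/ob 4, 5 and 6, and 5.19, 5.44 and 5.79 in NZO 10, 11 and 12. B6-ob/ob 4 was thus the highest of its strain in both. Within NZO these markers rose from array 10 to 12 while Adcy5 fell, and B6-ob/ob 5 and 6 also stood in opposite order. The part of the acinar markers in the difference was not tested.

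Spry2, a feedback inhibitor of growth factor signalling through receptor tyrosine kinases, was also higher in NZO. Its arrays read -0.74, -0.58 and -1.11 in NZO and -1.43, -1.51 and -1.38 in B6-ob/ob, and NZO 12 lay nearest to the other strain. The difference of 0.63 (SE 0.16, adjusted p = 0.0384 by limma) did not stand on the second probe, which differed by 0.20 (adjusted p = 0.517 by limma). The call was also lost without any 1 of 5 arrays, NZO 10, NZO 11, B6-ob/ob 4, 5 or 6, where the adjusted p lay between 0.0655 and 0.137.

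Arap1, which turns off small GTPases of the Arf family and is named at the same locus as Centd2, its older symbol, was the lowest of the members in NZO relative to B6-ob/ob. The NZO arrays read -2.96, -2.81 and -3.13 and the B6-ob/ob arrays read -1.14, -1.29 and -1.91. The strains did not overlap, and the gap between the nearest arrays was wider than the range within NZO. The difference was -1.52 (SE 0.22, adjusted p = 0.00541 by limma), a 2.87-fold lower signal in NZO. The probe lies at chr7:108560937-108560996 on the plus strand of mm9. The acinar and stromal markers above were higher in NZO, and their part in the Arap1 difference was not tested.

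Grb14, an adaptor that binds the insulin receptor and inhibits it, was not called. It read 2.05, 1.98 and 1.98 in NZO and 2.46, 2.25 and 2.43 in B6-ob/ob. The strains did not overlap, at a difference of -0.38 (SE 0.11, adjusted p = 0.0615 by limma). The other 4 measured members of this role, the tetraspanin Tspan8, the diacylglycerol kinase Dgkb, the receptor tyrosine phosphatase Ptprd and the PDZ domain adaptor Gipc1, differed by -0.34 to -0.11, and the arrays of the strains overlapped at each.

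**Figure D2:**
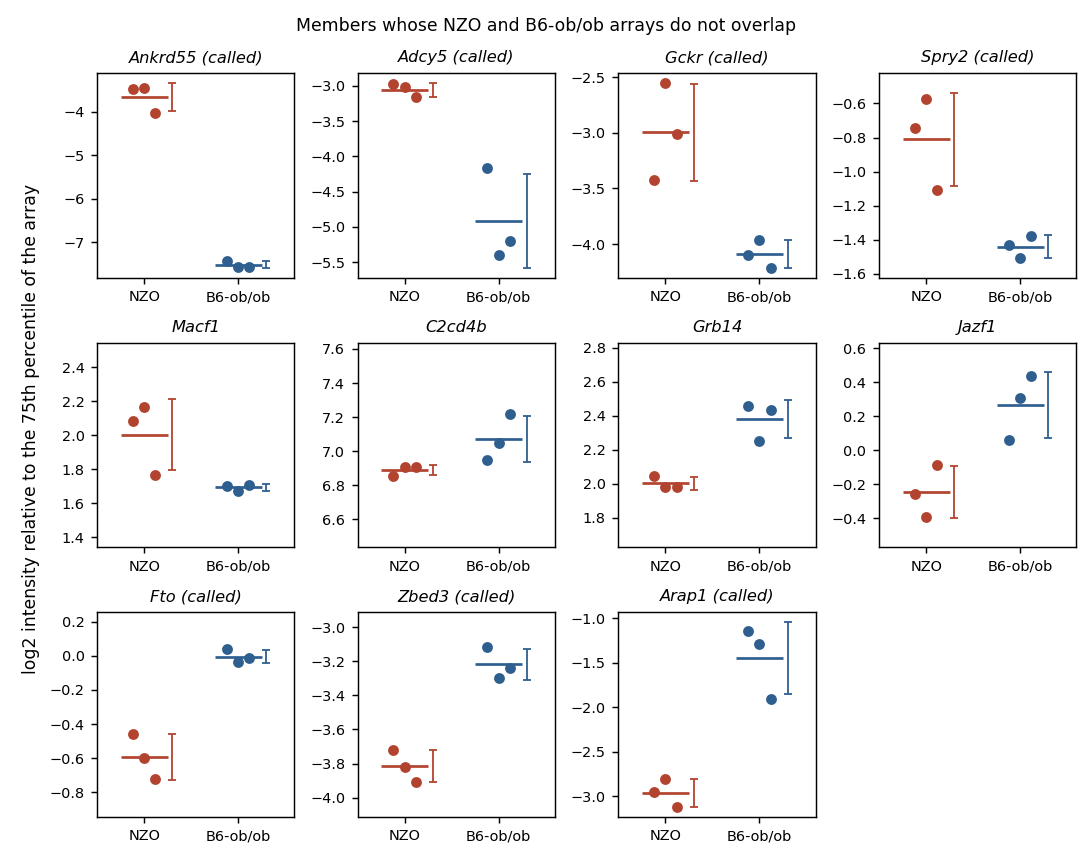
Log2 intensity relative to the 75th percentile of each array, for the 11 members whose NZO (red) and B6-ob/ob (blue) arrays do not overlap, with 1 point per array, the mean as a line and the SD beside it (n = 3 per strain). The vertical axes differ between panels; Ankrd55 is separated most widely, by 3.87, and C2cd4b least, by -0.18.

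Of the members that bind DNA or act in transcription, 10 were listed and 8 measured, and 1 was called. Zbed3, a zinc finger protein that binds Axin in the Wnt pathway, read -3.72, -3.82 and -3.91 in NZO and -3.12, -3.30 and -3.24 in B6-ob/ob. The arrays of each strain lay within a narrow band and did not overlap. The difference was -0.60 (SE 0.12, adjusted p = 0.0146 by limma). It was not called without NZO 11 (adjusted p = 0.0594 by limma) or without B6-ob/ob 5 (adjusted p = 0.0542 by limma).

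Jazf1, a zinc finger cofactor of nuclear receptors, read -0.26, -0.39 and -0.09 in NZO and 0.06, 0.31 and 0.44 in B6-ob/ob. Its strains did not overlap, but the difference of -0.51 (SE 0.15, adjusted p = 0.0579 by limma) missed the threshold. Its second probe differed by -0.68. Tcf7l2, the Wnt pathway transcription factor at the locus with the best known association with type 2 diabetes, differed by 0.12 (95% interval -0.33 to 0.56). That interval leaves room for a difference of either sign.

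The homeobox factor Prox1 differed by 0.39, the corepressors Tle1 and Tle4 by 0.24 and 0.31, the repressor Bcl11a by -0.30 and Glis3, a zinc finger factor needed for beta cell development, by -0.43. None of these 5 passed the test, and their arrays overlapped between strains. Hmga2, an architectural chromatin protein mainly of embryonic tissue, was well above background on 2 B6-ob/ob arrays and on no NZO array. Klf14, a zinc finger factor studied mainly in fat, was well above background on 0 of 6 arrays.

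Among the 4 members that bind or modify RNA, all measured, Fto was called lower in NZO. Fto encodes a demethylase of methyladenosine in RNA, and variants within it are best known for their association with body weight. Its arrays read -0.46, -0.60 and -0.72 in NZO and 0.04, -0.04 and -0.01 in B6-ob/ob. The B6-ob/ob arrays lay close together, above all NZO arrays. The difference was -0.59 (SE 0.12, adjusted p = 0.0162 by limma). The other probes of Fto differed by -0.11 and -0.51 and were not called. Without NZO 11 or B6-ob/ob 5 the adjusted p was 0.0646 and 0.0686 by limma.

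Igf2bp2, which binds messenger RNAs of growth pathways, differed by 0.81, with a 95% interval from 0.07 to 1.54 before adjustment and an adjusted p of 0.113 by limma. Its values overlapped between strains, from -4.40 to -3.65 in NZO and from -5.24 to -4.28 in B6-ob/ob. Cdkal1, a transfer RNA modifying enzyme needed for accurate proinsulin translation, differed by 0.23, and Rbms1 by 0.17. Neither was called.

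Of the 3 members with roles in metabolism and glycosylation, Gckr was called higher in NZO. Gckr encodes the regulatory protein that inhibits glucokinase, best known in liver. The NZO arrays read -3.42, -2.55 and -3.01 and the B6-ob/ob arrays read -4.10, -3.96 and -4.21. The NZO arrays were more widely spread and lay above all B6-ob/ob arrays. The difference of 1.10 (SE 0.23, adjusted p = 0.0196 by limma) is a 2.14-fold higher signal. Without NZO 12, B6-ob/ob 5 or B6-ob/ob 6 the adjusted p was 0.0563, 0.0601 and 0.0511 by limma.

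The probes of Srr, the racemase that makes D-serine, did not give 1 answer. Its brightest probe differed by -0.09 (95% interval -0.36 to 0.17), and the next 3 differed by -0.14, -0.43 and -0.59, none called. The fifth and dimmest probe read -6.16, -5.79 and -5.80 in NZO, where no array had it well above background. It read -4.53, -4.07 and -4.13 in B6-ob/ob, where it was measured on all 3, so it passed the filter through B6-ob/ob alone and its p rests on background readings in NZO. The signal on that probe was at least 2.11-fold lower in NZO, with a measured difference of -1.67 (adjusted p = 0.00183 by limma). A bound of this kind sets the mean of the brighter strain against the lowest signal among probes well above background on the arrays of the dimmer strain, or the probe's own signal where that was higher. St6gal1, a sialyltransferase of the Golgi, differed by -0.24 and was not called.

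In the group of proteins not placed in a role, Ankrd55 showed the widest separation of all members. It encodes a protein with ankyrin repeats. The NZO arrays read -3.48, -3.45 and -4.03 and the B6-ob/ob arrays read -7.44, -7.58 and -7.57. The probe was well above background on all 3 NZO arrays and on 0 of 3 B6-ob/ob arrays, so the B6-ob/ob level is a bound, and the SE and p below rest on background readings in that strain. The signal was at least 3.47-fold higher in NZO, with a measured difference of 3.87 (SE 0.18, adjusted p = 0.000138 by limma). The probe lies at chr13:113173922-113173981 on the plus strand of mm9. Ankrd55 was higher in the same strain as the acinar, stromal and macrophage markers, and their part was not tested.

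C2cd4b, a protein with a C2 domain, read 6.86, 6.91 and 6.91 in NZO and 6.95, 7.05 and 7.22 in B6-ob/ob. The strains did not overlap, yet the difference was -0.18 (SE 0.12, adjusted p = 0.33 by limma). Cilp2, a cartilage matrix protein, was well above background on 2 NZO arrays and on no B6-ob/ob array, and it was not tested.

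No member of the group in membrane traffic and cytoskeleton was called by limma, and none of the 3 had an unadjusted p under 0.05. Macf1, which links microtubules to actin, read 2.08, 2.16 and 1.77 in NZO and 1.70, 1.67 and 1.71 in B6-ob/ob. NZO 12 lay only just above the B6-ob/ob arrays, and the difference was 0.31 (SE 0.14, adjusted p = 0.17 by limma). The retromer subunit Vps26a differed by 0.23 and Ap3s2, a subunit of the AP-3 adaptor complex, by 0.03. Ap3s2 and Vps26a overlapped between strains.

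The 5 members of the group in protein turnover, stress and cell survival were also without a call by limma, with 0 at an unadjusted p under 0.05. They were the ubiquitin-conjugating enzyme Ube2e2 (0.29), the stress protein Trp53inp1 (0.01), the zinc finger protein Zfand6 (-0.04), Cdc123 (-0.20) and Thada (-0.67). Thada had the widest interval of these, from -1.37 to 0.02, and its second probe differed by -0.03. Cdc123, an assembly factor for a translation initiation complex, has 2 probes that overlap on the transcript. They are shown because they read nearly the same bases, so they stand for 1 measurement and not for a repeat; the 50 bases that both hold are in capitals.
Cdc123 probe 1: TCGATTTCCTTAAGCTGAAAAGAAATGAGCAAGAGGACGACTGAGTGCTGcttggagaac
Cdc123 probe 2: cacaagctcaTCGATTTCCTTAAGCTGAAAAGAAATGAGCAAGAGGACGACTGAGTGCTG
These lie on the minus strand of mm9 at chr2:5715884-5716611 and chr2:5715894-5716621, each across 728 bases of the genome, and they differed by -0.20 and -0.21 between the strains.

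**Figure D3:**
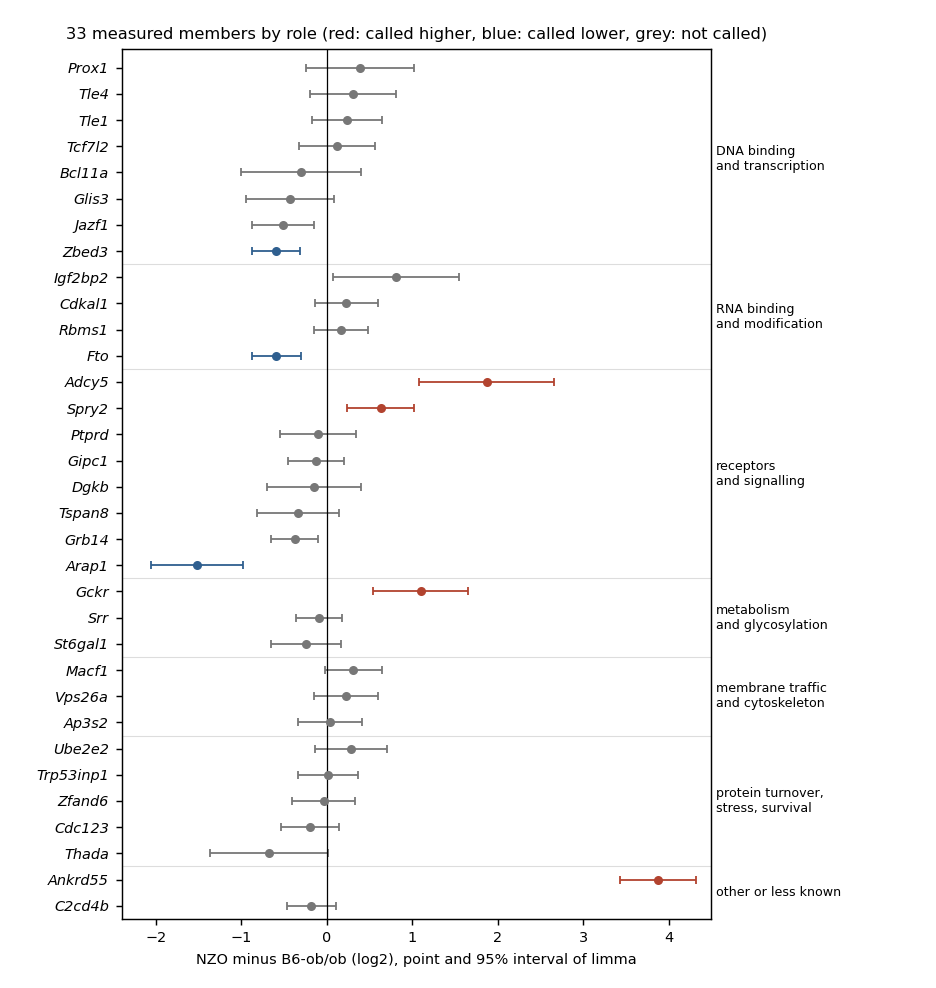
Difference between NZO and B6-ob/ob on the log2 scale, with its 95% interval from limma (before adjustment), for the 33 measured members in their 7 role groups. Red points were called higher, blue points lower and grey points not at all; the points run from -1.52 (Arap1) to 3.87 (Ankrd55).

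Of the 6 members that did not pass the filter, Mtnr1b, a melatonin receptor known for its link to fasting glucose, was well above background on 0 of 6 arrays. Lgr5, a receptor of Wnt pathway ligands that marks stem cells, was so on 1 B6-ob/ob array, and the calmodulin-dependent kinase Camk1d on 1 NZO array. These signals were too dim for a comparison of the strains.

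Several members were read by more than 1 probe, and how well those agreed limits each call. Of 59 member probes that passed the filter, 9 were called, 5 higher and 4 lower, which is 15.3% beside 21.8% of all such probes. Of 17 members with several such probes, 12 had differences of 1 sign, which is 70.6% beside 68.8% of 5946 genes. The median spread between probes of a member was 0.40, beside 0.26 over all genes. Tcf7l2, Prox1, Tle1, Bcl11a and Trp53inp1 had probes of both signs, none of them called. For Tcf7l2 the second probe differed by -0.45, against 0.12 for the brightest. For Prox1 the second probe differed by -0.12 and for Tle1 by -0.40. For Bcl11a the other probes differed by 0.18 and 0.02.

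**Figure D4:**
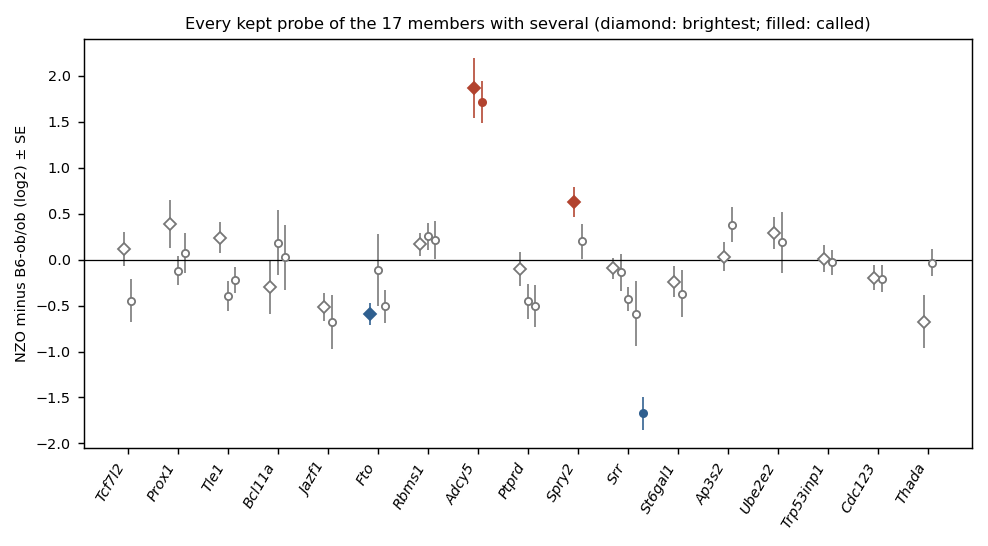
Difference between NZO and B6-ob/ob (log2, with the SE) at every probe that passed the filter, for the 17 members with several. Diamonds mark the brightest probe and filled symbols a call; both Adcy5 probes sit together at 1.87 and 1.72, while 1 Srr probe at -1.67 stands apart from the other 4.

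The arrays came from 3 slides, of which 2 held both strains, slide 2 with NZO 10 and B6-ob/ob 4 and slide 3 with NZO 11 and B6-ob/ob 5 and 6. Within slide 2 and slide 3 in turn, the difference was 1.18 and 2.29 for Adcy5, 0.68 and 1.54 for Gckr, and 0.69 and 0.87 for Spry2. It was 3.96 and 4.12 for Ankrd55 and -1.81 and -1.22 for Arap1. For Zbed3 it was -0.60 and -0.55, and for Fto -0.50 and -0.57. All 7 had the same direction on both slides, but their strains do not overlap, so the sign within a slide was fixed in advance. With slide as a fixed block, in which NZO 12 has no weight, Gckr (adjusted p = 0.0502 by limma), Zbed3 (adjusted p = 0.0637 by limma) and Fto (adjusted p = 0.0724 by limma) were no longer called. The members called were then 3 higher and 1 lower, beside 14.9% of all genes. Another alternative changed background correction and scaling together, to normexp with an offset of 50 and then quantile scaling between arrays. It gave smaller differences for dim probes: 0.62 for Ankrd55, 0.49 for Adcy5, 0.40 for Gckr, -0.93 for Arap1 and -0.24 for Zbed3. The parts of the 2 changes were not separated. Of these Zbed3 was no longer called.

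The 3 lists of related genes were set beside the members. Of 39 other measured genes named at type 2 diabetes loci, 2 were called higher and 3 lower, or 12.8%, with a median difference of -0.06. Without NZO 10, NZO 11 or B6-ob/ob 5 the count called was 2, beside 14.4%, 13.1% and 11.7% of all genes called in those fits. Kcnq1, a potassium channel subunit, differed by 2.35 and the receptor Notch2 by 2.30. Prc1, a protein of the mitotic spindle, differed by -2.95, Ccnd2, a cyclin of the early cell cycle, by -0.69 and Kcnj11, the pore subunit of the ATP-sensitive potassium channel of beta cells, by -0.68. The B6-ob/ob arrays at Prc1 spread widely, reading 2.72, 1.88 and -0.21.

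Relatives of the members by gene family were called higher at 8 and lower at 1 of 40 measured genes, or 22.5%, with a median of 0.27. Without B6-ob/ob 5 the count called was 5, beside 11.7% of all genes called in that fit. Arap2 was higher by 1.36, where Arap1 was lower. Gipc2 differed by 1.80, where Gipc1 differed by -0.13 and was not called. Cilp differed by 1.54 and Zfand5, a relative of Zfand6, by -0.89. Whether a relative and its member differed from each other was not tested.

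Genes that neighbour the members were of interest because a locus may act through a neighbour. Of 38 listed neighbours, all within 1 Mb of a member in the gene order of RefSeq for GRCm38.p6, 32 were measured, and 7 were called higher and 0 lower by limma, or 21.9%, with a median of 0.13. At an unadjusted p under 0.05, 10 were higher and 1 lower, beside 3105 higher and 2625 lower of all 16384 measured genes. The count called was 2 without NZO 10 or B6-ob/ob 5, beside 14.4% and 11.7% of all genes called in those fits. It was 3 without NZO 11 or NZO 12, beside 13.1% and 17.5%. It was 4 without B6-ob/ob 4 or with arrays scaled on their medians, beside 21% and 22.1%. Hkdc1, a hexokinase near Vps26a, differed by 4.92, and the NZO arrays read -0.40, 0.30 and -0.57 against -3.99, -5.28 and -6.17 in B6-ob/ob. Its probe was well above background on all 3 NZO arrays but on only 2 B6-ob/ob arrays. The matrix proteoglycan Ncan, near Cilp2, was well above background in NZO and on no B6-ob/ob array, and was at least 2.86-fold higher. Ncan, which is among the 7 called, passed the filter only through its NZO arrays and so had to differ. Il6st, the signalling receptor subunit of the interleukin-6 family, near Ankrd55, differed by 1.42.

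All genes whose probe lay within 500 kb of a member's probe on mm9 were then counted. Of 235 such genes 28 were called higher and 15 lower, or 18.3%, beside 22.1% of all genes. Around the 7 called members it was 14 of 64 genes, or 21.9%. The genes named next were chosen after their values were seen. Near Arap1, which was lower in NZO, the folate receptor gene Folr1 differed by -6.12 at 446.0 kb and Folr2 by -1.23, while the nucleotide receptor genes P2ry2 and P2ry6 differed by 1.81 and 1.16 on the other side. Near Zbed3, Crhbp, which binds corticotropin-releasing hormone, was at least 6.08-fold lower in NZO, and Iqgap2 differed by 2.83 in the other direction. Crhbp passed the filter only through its B6-ob/ob arrays and so had to differ. Near Adcy5, Mylk, the kinase of myosin light chain, differed by 1.74 at -304.6 kb, where the minus sign means toward the start of the chromosome. Near St6gal1, which was not called, the plasma protein gene Ahsg was at least 8.17-fold higher in NZO. Ahsg passed the filter only through its NZO arrays and so had to differ. Both Crhbp and Ahsg are among the calls counted within 500 kb. So are Gdpgp1 near Ap3s2, called lower, and the transcript NAP026604-1 near Tcf7l2, called higher. These also passed the filter through 1 strain alone and so had to differ. Near Vps26a, also not called, Neurog3, the factor that specifies endocrine cells, differed by -2.10.

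**Figure D5:**
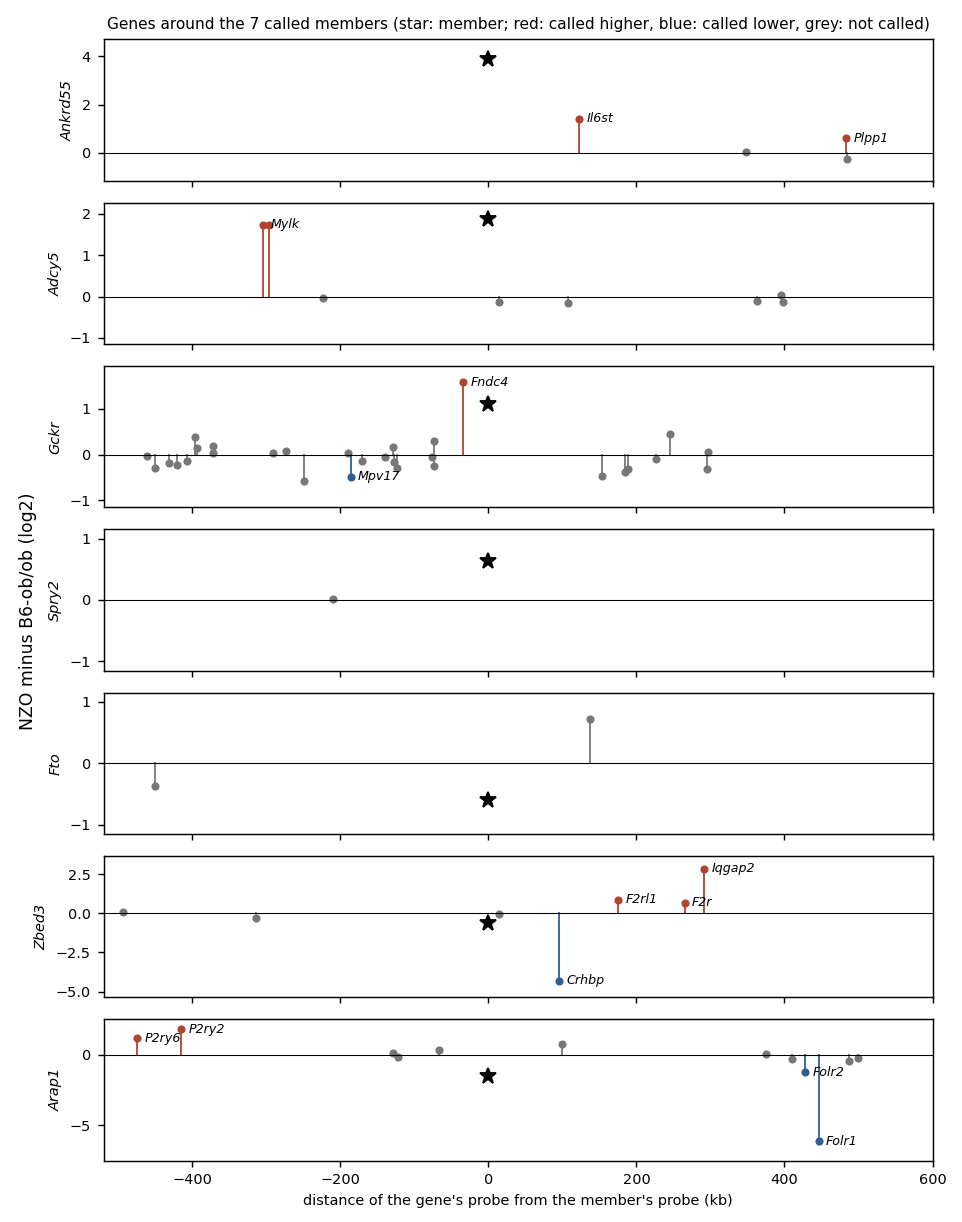
Difference between NZO and B6-ob/ob (log2) for genes within 500 kb of the 7 called members, against the distance of their probes from the member's probe in kb. The star is the member, red genes were called higher, blue genes lower and grey genes not; of 64 genes, 14 were called, and both directions occur around Arap1, Zbed3 and Gckr.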

How the data were processed

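The deposited scanner files hold spot intensities of 1-colour Cy3 arrays (design 014868), which per the file headers came from Agilent Feature Extraction 10.5.1.1 (9.1 in the submitters' processing notes). Their processed intensity was background-subtracted by that software per the file headers. The authors' value table, also intensities (33150 rows, 33074 matched to a probe, column medians 21.3 to 22.4), served only as an alternative with the sign turned; its scale is linear and uncentred, and its direction is unsettled.

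Control and flagged spots (61 to 76 per array) were left out; no spot was saturated. Each array had 23621 to 24710 of 41174 probes well above background; precision is limited by how few arrays there are. The log2 intensity minus each array's 75th percentile was tested two-sided on 24628 probes with limma 3.58.1 (R 4.3.3; lmFit, eBayes), after a check on simulated data. Names were updated through RefSeq for 25097 probes by accession and 7973 by symbol, and 8104 kept the file's name. The files give probe positions on mm9. The rule names every member, called or non-overlapping members by array, other probes that were called or of opposite sign, and up to 3 called genes per direction in each list. Members and lists were chosen with earlier results of these data known. Alternatives covered background, scaling, the value table, filter, gene summary, slide, array weights, prior variance and leaving out each array.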

Additional observations from a re-analysis of the deposited data

How the results depend on the processing

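No paired analysis was possible because the strains share no replicate numbers, so slide was the block that could be tried. The call at Adcy5 held in 17 of 17 alternatives that tested its probe, but the 6-array filter left that probe out. At Arap1 the call held in 18 of 18. Fto held in 13 of 17, Zbed3 and Gckr in 14 of 18 each and Spry2 in 9 of 17. Of the members without overlap that were not called, Jazf1 was called in 5 of 18 alternatives and Grb14 in 4 of 18. Macf1 was called in 2 of 18 and C2cd4b in 0 of 18. None of the differences recomputed, those at the 11 members without overlap and at the fifth Srr probe, reversed. As their strains do not overlap, leaving out an array or comparing within a slide could not reverse them. Differences of the other members were not recomputed singly. Members called higher numbered 2 with all 6 arrays required above background, and 7 with array weights. Members called lower numbered 5 with array medians, with no filter and with a trended, robust prior, 1 with slide as a fixed block, where NZO 12 has no weight, and 7 with array weights. Member probes called numbered 5 with the 6-array filter and 23 with weights, against 9. Other locus genes called numbered 3 without the filter, 2 with the slide block and 16 with weights, relatives 19 with weights, and neighbours 4 with array medians, 2 without the filter, 3 with the slide block and 14 with weights. The median over members was 0.21 within slide 2. Leaving out each array gave 2 to 4 members higher (2 without B6-ob/ob 5 or 6), 1 to 4 lower (1 without NZO 11 or B6-ob/ob 5), 5 to 10 member probes, 2 to 7 other locus genes, 5 to 11 relatives, 2 to 5 neighbours and a median of -0.10 to 0.04. Over all genes, calls numbered 6890 with weights, 2352 without NZO 10, 2142 without NZO 11 and 1923 without B6-ob/ob 5, against 3621 in the reported fit, and 2446 to 3928 under the other settings. The cause of these moves was not tested. Signal over background limits 6 members and the B6-ob/ob levels of Ankrd55 and Adcy5.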
